A study of Homo sapiens with 3 samples.

Results

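The genes of mitosis and of the G2/M transition were followed as a group in an RNA-seq experiment on TCF7L1. The group was a list of 52 genes, taken by name from the deposited table of 58735 genes, and it covered mitotic cyclins, kinases, kinesins and genes of the spindle, kinetochore and chromosome. All 52 genes were found in the table, and all 52 passed the filter of at least 10 counts over the 3 libraries, as did 22902 genes in all. The list was written from the known functions of the genes and not from their values in these libraries, although it was drawn up with earlier results of the same libraries known.

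TCF7L1 is a transcription factor of the TCF/LEF family, known mostly as a repressor of Wnt target genes, and the experiment asked which genes it regulates in colorectal cancer cells. RNA was taken from stable lines labelled HCT116, an established human colon carcinoma cell line, and 1 library was sequenced for each of 3 groups. The vector group carried an empty doxycycline-inducible plasmid, the TCF7L1 group carried the same plasmid with wild-type *TCF7L1*, and the TCF7L1-MUT group carried *TCF7L1* with substitutions in the HMG box that impair DNA binding. In every group endogenous *TCF7L1* had been knocked down by a lentiviral hairpin, shTCF7L1-2, and doxycycline was given at 1 µg/ml, and the introduced cDNAs were made resistant to the hairpin. Each group is therefore 1 stable line and 1 library, no difference below has a replicate check, and no p-value was computed.

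Entry into mitosis is driven by cyclin B bound to the kinase CDK1, which the CDC25 phosphatases activate and the Polo-like and Aurora kinases assist. Kinesins and spindle factors then build the spindle, the kinetochore attaches chromosomes to it, and a checkpoint holds back the anaphase-promoting complex until all are attached. Transcripts of these genes accumulate in G2 and M and are low in G1, so that they are widely used as a measure of how much of a culture is cycling. In bulk RNA such as this, a different share of cells in G2/M and a different amount of RNA per cell cannot be told apart.

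The vector, TCF7L1 and TCF7L1-MUT libraries held 24190426, 17466191 and 20328324 counts. *TCF7L1* itself had 496, 10723 and 2529 counts in that order, a log2 ratio to the vector of 4.95 (95% interval 4.82 to 5.09) with TCF7L1 and 2.67 (2.53 to 2.81) with TCF7L1-MUT. These counts do not separate endogenous from introduced transcripts. Ratios throughout are log2 ratios of counts scaled with TMM, in CPM (counts relative to the scaled library size). The 95% intervals cover counting error only and leave out differences between lines, cultures and library preparations. Reads that passed through PCR without molecular identifiers are not independent molecules, so even counting error may be larger than the intervals show.

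The labelled cell type was checked against marker genes. Of 20 colorectal epithelial markers, 15, 16 and 17 had more than 3 counts in the vector, TCF7L1 and TCF7L1-MUT libraries, and the summed level was 868, 1348 and 1237 CPM, but the median marker was at 0.322, 0.498 and 0.692 FPKM. The keratin gene *KRT8* had 10208, 11220 and 11308 counts and made up much of this sum. The cadherin gene *CDH1*, at 800, 376 and 443 counts, and the intestinal transcription factor gene *CDX2*, at 1022, 465 and 637 counts, were highest in the vector library instead. *CEACAM5* and *CEACAM6* were at 0 in all 3 libraries and *VIL1* had 9, 6 and 6 counts. Of 13 genes typical of HEK293 cells, the parent of the HEK293FT line in which the lentiviruses were made, 12, 11 and 12 had more than 3 counts, and the summed level was 1325, 343 and 537 CPM, with *IRS4* at 20748, 2704 and 3882 counts. Of 10 fibroblast markers, 7, 5 and 8 had more than 3 counts, with summed levels of 235, 138 and 159 CPM. The summed HEK293 and fibroblast markers were highest in the vector library, with *IRS4* the largest part of the former, but for *LIN28B* (43.6, 6.29 and 35.4 CPM) and *NEFM* (73.0, 15.1 and 62.2 CPM) it was the TCF7L1 library that lay apart. The log2 ratio of the summed HEK293 markers was -1.95 for TCF7L1 over vector, -1.30 for TCF7L1-MUT over vector and -0.65 for TCF7L1 over TCF7L1-MUT. Single markers differed more. Over the vector, the lowest of 12 tested HEK293 markers was at -9.02 with TCF7L1 and -6.76 with TCF7L1-MUT. In each, 1 of the 12 lay above 0, and with TCF7L1 8 of them were past 2-fold. The lowest of 8 tested fibroblast markers was at -6.92 with TCF7L1 over vector, and 1 lay above 0. The lowest of 17 tested colorectal markers was at -5.36 in that comparison, where 13 lay above 0. The markers therefore differed in all 3 comparisons, and their part in the ratios described below was not tested. The comparison of TCF7L1 with TCF7L1-MUT does not use the vector library, and it is given for the group, for the lists and for the members described in full.

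The promoters of several members are shown first, because 2 short sequences recur in them. The cell cycle genes homology region is bound by the MuvB complexes that repress mitotic genes in resting cells and activate them in G2, and its core was searched here as TTTGAA and in another form as TTTAAA. The CCAAT box is bound by NF-Y, an activator of many cell cycle genes. Printed are the 150 bases before the RefSeq start of each gene (GRCh38.p14), 5′ to 3′ on the strand of the gene, with both forms of this core and the CCAAT box on either strand in capitals. On the opposite strand a CCAAT box reads ATTGG, and the first form of the core reads TTCAAA. *CCNB1* (chr5:69167000-69167149, plus strand), *KIF18A* (chr11:28108157-28108306, minus strand) and *SPC25* (chr2:168890431-168890580, minus strand) were the members over 1.5-fold higher than the vector in both other libraries.
CCNB1: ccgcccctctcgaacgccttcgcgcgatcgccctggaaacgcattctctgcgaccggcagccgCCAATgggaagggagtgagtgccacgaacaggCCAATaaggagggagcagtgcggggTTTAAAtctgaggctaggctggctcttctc
KIF18A: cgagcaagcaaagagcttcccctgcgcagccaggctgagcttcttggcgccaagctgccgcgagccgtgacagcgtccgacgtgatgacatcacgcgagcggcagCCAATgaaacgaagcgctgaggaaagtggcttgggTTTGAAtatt
SPC25: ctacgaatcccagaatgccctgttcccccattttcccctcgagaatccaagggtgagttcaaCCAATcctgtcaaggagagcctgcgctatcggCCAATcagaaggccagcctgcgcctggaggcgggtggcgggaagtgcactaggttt

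*MKI67* (chr10:128126424-128126573, minus strand) had the highest ratio of TCF7L1 to TCF7L1-MUT, and *PLK1* (chr16:23678739-23678888, plus strand) was higher than the vector in both libraries. *CCNB2* (chr15:59104996-59105145, plus strand) and *TOP2A* (chr17:40417897-40418046, minus strand) were near or under the vector, and *PRC1* (chr15:90994536-90994685, minus strand) was the member furthest under it with TCF7L1.
MKI67: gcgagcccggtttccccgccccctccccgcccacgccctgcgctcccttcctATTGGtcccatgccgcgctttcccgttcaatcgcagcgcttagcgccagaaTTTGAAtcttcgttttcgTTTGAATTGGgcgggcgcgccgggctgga
PLK1: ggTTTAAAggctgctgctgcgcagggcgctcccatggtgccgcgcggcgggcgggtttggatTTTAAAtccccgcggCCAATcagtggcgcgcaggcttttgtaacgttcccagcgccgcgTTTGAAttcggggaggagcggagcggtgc
CCNB2: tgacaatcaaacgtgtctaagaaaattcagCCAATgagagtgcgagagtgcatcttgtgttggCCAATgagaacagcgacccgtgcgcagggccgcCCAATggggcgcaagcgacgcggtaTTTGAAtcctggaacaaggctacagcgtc
TOP2A: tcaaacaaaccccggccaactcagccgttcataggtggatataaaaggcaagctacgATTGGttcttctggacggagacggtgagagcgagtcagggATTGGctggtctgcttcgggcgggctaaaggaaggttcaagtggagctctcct
PRC1: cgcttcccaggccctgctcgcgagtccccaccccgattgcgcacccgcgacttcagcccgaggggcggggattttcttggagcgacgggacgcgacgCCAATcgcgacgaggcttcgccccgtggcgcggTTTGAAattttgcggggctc

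In *CCNB1*, TTTAAA began 30 bases before the start and the CCAAT boxes began 87 and 55 bases before it, 32 bases apart. *CCNB2* had a similar arrangement, with TTTGAA at 29 bases and CCAAT boxes at 120, 87 and 54 bases, 33 bases apart, and the CCAAT boxes of *SPC25* were again 32 bases apart. These cyclin B genes share the layout but not the ratio to the vector, which was 0.93 for *CCNB1* and -0.02 for *CCNB2* in the TCF7L1 library. *PRC1*, with the lowest ratio in the TCF7L1 library but few counts (128, 49 and 83), also held both kinds of motif. They began at 20 bases for TTTGAA and 53 bases for CCAAT. The printed stretches of *SPC25* and *TOP2A* held CCAAT boxes but neither TTTGAA nor TTTAAA. The wider windows counted below held TTTGAA for both genes.

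RefSeq promoter windows from 250 bases before to 50 bases after the start were found for 44 of the 52 members. Of the 58 windows of these members, 54 ended in 20 bases that occur in a transcript of the gene. Sequences were printed only from those 54, but the motif counts use all 58. TTTGAA occurred on either strand in 32 of these 44 genes (72.7%), against 18.2% of all 27305 genes with a window, and TTTAAA in 15 (34.1%) against 14.5%. At least 1 of these 2 forms was present in 39 members (88.6%), against 27.9% of all genes, 14.3% of the 49 G1/S and DNA replication genes with a window and 31.8% of the 22 such p53 targets and CDK inhibitors. Within the last 50 bases before the start it was present in 20 members (45.5%), against 5.49% of all genes, a layout looked at after the sequences were seen. CCAAT occurred in 35 members (79.5%) against 39.7% of all genes, 61.2% of the G1/S and DNA replication genes and 72.7% of the p53 targets and CDK inhibitors, so the comparison lists were also above all genes for this box. Of the members, 28 (63.6%) held CCAAT with TTTGAA or TTTAAA, against 11.2%. CCAAT boxes on the same strand that began 31 to 33 bases apart, also a layout looked at after the sequences were seen, occurred in the last 150 bases of 6 members (13.6%), against 0.813% of all genes.

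The E2F sites typical of G1/S genes were rare in the members. TTTGGCGC occurred in 1 member (2.27%) and TTTCGCGC in 1 member (2.27%), against 20.4% and 14.3% of the G1/S and DNA replication genes, and against 0.795% and 0.63% of all genes. CTTTGAT, a TCF/LEF site, occurred in the windows of 0 of the 44 members, against 3.18% of all genes, which says only that these letters were not in these windows. The study found the shorter motif TTTKAW (K is G or T, W is A or T) in promoters bound by TCF7L1. It links TTTKAW to TCF7L1, TCF7L2 and LEF1. TTTGAA, counted above as a form of the MuvB core, also fits TTTKAW. The letters do not tell these factors apart, and binding was not tested. Members that held TTTGAA or TTTAAA had median log2 ratios to the vector of 0.25 with TCF7L1 and 0.26 with TCF7L1-MUT (39 genes), and members with neither form had 0.04 and 0.22 (5 genes). With TCF7L1 the 39 genes ran from -0.87 to 0.93 and the 5 genes from -0.17 to 0.44. The ranges overlap, and a median of 5 genes rests on few values.

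The mitosis and G2/M genes were somewhat more abundant in the TCF7L1 and TCF7L1-MUT libraries than in the vector library. Summed over the 52 members they made up 0.561% of the vector library (95% exact Clopper-Pearson interval 0.558% to 0.564%), 0.649% of the TCF7L1 library (0.645% to 0.653%) and 0.603% of the TCF7L1-MUT library (0.599% to 0.606%). The summed level in CPM gave a log2 ratio of 0.26 for TCF7L1 over vector, 0.17 for TCF7L1-MUT over vector and 0.09 for TCF7L1 over TCF7L1-MUT. Both ratios to the vector share the same vector library, so a value that is high or low there moves both. The study lists a lower RNA integrity number for the vector library than for the others, and its part in these ratios was not tested.

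Between genes, levels can be compared only per length, in FPKM. The median member was at 21.0, 25.1 and 23.2 FPKM in the vector, TCF7L1 and TCF7L1-MUT libraries. *CDC20*, the activator of the anaphase-promoting complex, was the highest member in all 3 libraries, at 82.4, 137 and 115 FPKM. *UBE2C*, its partner ubiquitin-conjugating enzyme, followed in the vector library at 76.6 FPKM, then *TOP2A* at 66.8, *BIRC5* at 58.2 and *TPX2* at 55.4 FPKM. *PRC1*, at 0.917, 0.515 and 0.747 FPKM, was the lowest, and *NUSAP1*, at 3.37, 3.25 and 3.30 FPKM, was next to it.

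**Figure D1:**
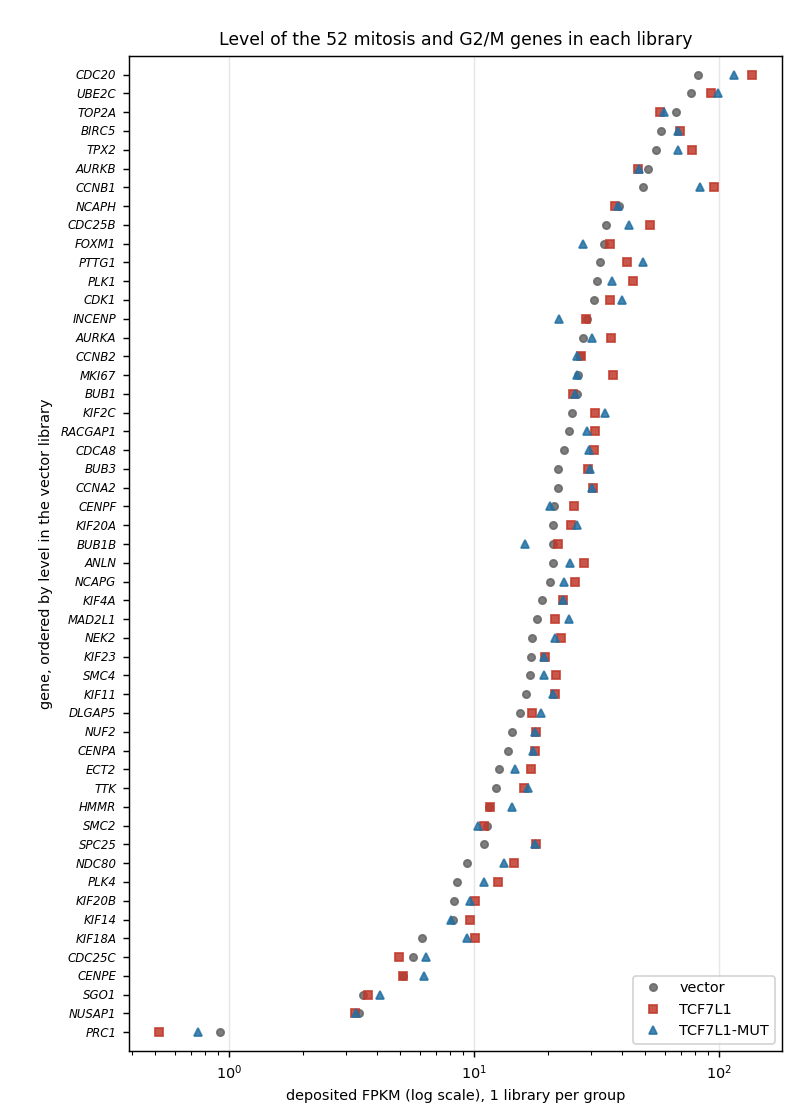
Deposited FPKM of each of the 52 genes in the vector (circles), TCF7L1 (squares) and TCF7L1-MUT (triangles) libraries, on a log axis, ordered by the vector library. Most genes lay between 5 and 100 FPKM, *CDC20* was highest in each library and *PRC1* stood apart below 1 FPKM.

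Against the vector, the median log2 ratio of the 52 members was 0.26 in the TCF7L1 library, beside -0.06 over all genes tested and 0.04 over the 10932 genes at or above a mean of 10 CPM. Of the members, 40 had a ratio above 0 (54.2% of genes at or above 10 CPM did) and 12 a ratio below 0. Over 1.5-fold higher were 5 members, *CCNB1*, *CDC20*, *KIF18A*, *SPC25* and *NDC80*, where 13.0% of all genes tested and 6.83% of those at or above 10 CPM were that high. Over 1.5-fold lower was 1 member, *PRC1*, where the shares were 24.8% and 10.5%. The members past 1.5-fold upward, 5 of 52, were thus close in share to the background, most members lay a small amount above the vector, and few lay far under it. None of the 52 passed 2-fold in either direction, which 21.6% of all genes tested and 5.67% of those at or above 10 CPM did.

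In the TCF7L1-MUT library the median ratio to the vector was 0.25, beside -0.04 over all genes tested and 0.03 at or above 10 CPM. A ratio above 0 was found for 38 members (53.5% of genes at or above 10 CPM). *CCNB1*, *SPC25* and *KIF18A* were over 1.5-fold higher, 3 of 52, where 11.5% of all genes tested and 3.96% at or above 10 CPM were, and 0 members were over 1.5-fold lower, where 19.7% and 6.56% were. None passed 2-fold, which 15.6% of all genes tested and 2.12% at or above 10 CPM did.

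When TCF7L1 was set against TCF7L1-MUT, the members were close to even. The median was 0.01, beside -0.02 over all genes tested and 0.00 at or above 10 CPM, with 28 members above 0 (50.4% of genes at or above 10 CPM) and 24 below. No member was over 1.5-fold higher (10.7% of all genes tested, 0.704% at or above 10 CPM) or lower (16.2% and 3.31%), and none passed 2-fold (14.8% and 1.03%). The levels of most of these genes thus differed little between wild-type TCF7L1 and the form impaired in DNA binding, and most lay above the vector in each. With 1 library per group, a difference of this size cannot be told apart from variation between lines or cultures.

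**Figure D2:**
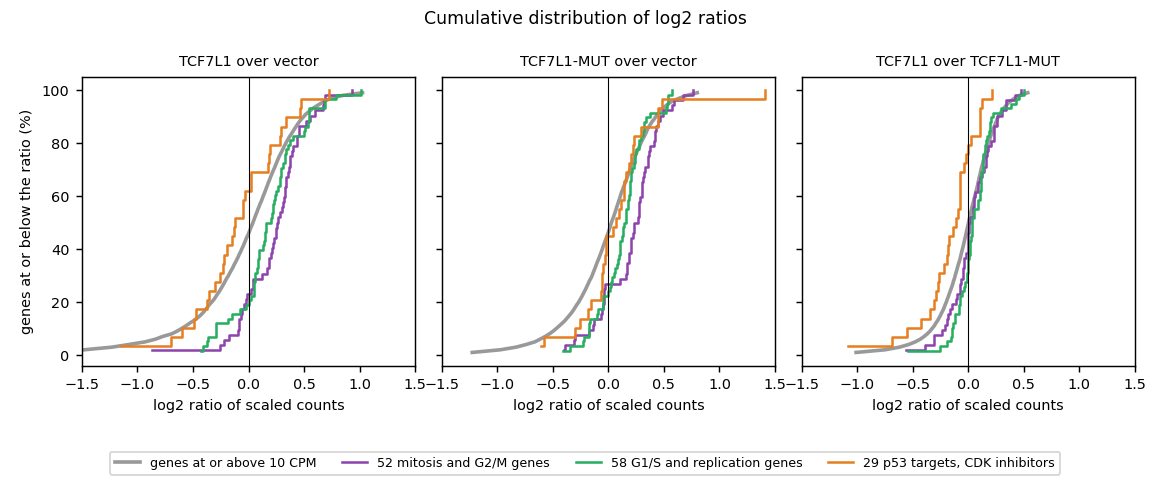
Cumulative share of genes (%) at or below each log2 ratio, in the 3 comparisons, for the 52 mitosis and G2/M genes, 58 G1/S and DNA replication genes, 29 p53 targets and CDK inhibitors, and the genes at or above 10 CPM (shown from their 1st to 99th percentile and, like the others, between -1.5 and 1.5). The mitosis curve lies right of the background against the vector, at medians of 0.26 and 0.25, and near it between TCF7L1 and TCF7L1-MUT.

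The same values were compared with lists of other phases. The 58 G1/S and DNA replication genes had median ratios to the vector of 0.18 with TCF7L1 and 0.15 with TCF7L1-MUT. Where 54.2% and 53.5% of genes at or above 10 CPM lay above 0, 47 and 44 of these 58 did. *CCND1*, encoding cyclin D1, was the highest of them with TCF7L1, at 4580, 6466 and 5265 counts in the vector, TCF7L1 and TCF7L1-MUT libraries and log2 ratios of 1.02 and 0.52. Between TCF7L1 and TCF7L1-MUT the G1/S median was 0.04. The 29 p53 targets and CDK inhibitors had medians of -0.12 and 0.06 against the vector and -0.12 between TCF7L1 and TCF7L1-MUT. In that last comparison 23 of the 29 lay below 0, as did 5419 of the 10932 genes at or above 10 CPM. *CDKN2C*, encoding the CDK4 and CDK6 inhibitor p18, had 1151, 363 and 884 counts and log2 ratios of -1.15 and -0.07. *GDF15*, a stress-induced p53 target, had 1756, 2025 and 3743 counts and log2 ratios of 0.72 and 1.41. Most genes of the G1/S list thus also lay above the vector, while the p53 targets and CDK inhibitors centred near or below 0.

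Among the cyclins and the regulators of CDK1, 4 of 6 genes were above the vector with TCF7L1 and 5 of 6 with TCF7L1-MUT, with medians of 0.31 and 0.34. *CCNB1* (ENSG00000134057, GRCh38 chr5:69167010-69178245), encoding cyclin B1, had 3159, 4215 and 4316 counts in the vector, TCF7L1 and TCF7L1-MUT libraries, or 127, 243 and 216 CPM. Both other libraries were well above the vector, with log2 ratios of 0.93 (0.87 to 1.00) and 0.77 (0.70 to 0.83), the highest ratio of any member in both comparisons, and at 0.17 (0.11 to 0.23) between TCF7L1 and TCF7L1-MUT. *CCNB2*, encoding cyclin B2, was level by contrast, at 77.3, 76.3 and 74.1 CPM. *CCNA2*, encoding cyclin A2, which acts in S phase and G2, was at 62.5, 84.7 and 85.1 CPM, with ratios of 0.44 (0.33 to 0.54) and 0.45 (0.34 to 0.55) to the vector and -0.01 (-0.11 to 0.10) between the other libraries. The 3 cyclins of one functional class thus took different positions, from even to nearly 2-fold.

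*CDK1*, the mitotic kinase itself, had 3062, 2426 and 3182 counts, or 123, 140 and 160 CPM. It was higher in both libraries, more so with TCF7L1-MUT, at 0.18 (0.11 to 0.26) against 0.37 (0.30 to 0.44), and at -0.19 (-0.27 to -0.11) between them. *CDC25B*, the phosphatase that starts CDK1 activation, showed the other order, at 152, 223 and 187 CPM and ratios of 0.56 and 0.30. *CDC25C*, which amplifies it, had 475, 284 and 427 counts, or 19.1, 16.4 and 21.4 CPM. It was lowest in the TCF7L1 library, with ratios of -0.22 (-0.44 to -0.01) with TCF7L1, 0.16 (-0.03 to 0.35) with TCF7L1-MUT and -0.39 (-0.61 to -0.17) between them.

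The mitotic kinases outside the checkpoint and the passenger complex were all above the vector, with medians of 0.41 and 0.25 over 4 genes. *PLK1*, which promotes mitotic entry and spindle assembly, had 3834, 3662 and 3511 counts, or 154, 211 and 176 CPM. Its ratio was 0.45 (0.39 to 0.52) with TCF7L1, 0.19 (0.12 to 0.26) with TCF7L1-MUT and 0.26 (0.20 to 0.33) between them. *AURKA*, the kinase of the spindle poles, was at 82.9, 105 and 89.3 CPM. Its ratios were 0.34 (0.25 to 0.43), 0.11 (0.01 to 0.20) and, between TCF7L1 and TCF7L1-MUT, 0.23 (0.14 to 0.33). Each of the 4 kinases was highest in the TCF7L1 library, including *PLK4*, the kinase of centriole duplication (38.9, 55.6 and 49.7 CPM), and *NEK2*, a centrosome kinase (54.1, 69.3 and 66.8 CPM), and the ratios of TCF7L1 to TCF7L1-MUT ran from 0.05 to 0.26.

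The partners of the anaphase-promoting complex and its substrate securin were also all above the vector. *CDC20* (ENSG00000117399, chr1:43358955-43363203) had 4244, 4789 and 4709 counts, or 171, 276 and 236 CPM. It was over 1.5-fold higher with TCF7L1, at 0.69 (0.63 to 0.75), at 0.47 (0.41 to 0.53) with TCF7L1-MUT and at 0.23 (0.17 to 0.29) between them. *PTTG1*, encoding securin, which restrains separase until anaphase, had 1665, 1464 and 1988 counts, or 67.1, 84.4 and 99.7 CPM. It was highest with TCF7L1-MUT, at 0.57 (0.48 to 0.67) against 0.33 (0.23 to 0.44) with TCF7L1, and *UBE2C* had the same order, at 100.2, 119 and 128 CPM.

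The spindle assembly checkpoint was split. *BUB3*, *MAD2L1* and the kinase gene *TTK*, all needed for the checkpoint signal, had ratios of 0.21 to 0.38 with TCF7L1 and 0.41 to 0.42 with TCF7L1-MUT. *BUB1*, a checkpoint kinase of the kinetochore, had 4009, 2642 and 3118 counts, or 162, 152 and 156 CPM, and was nearly even at -0.08 (-0.16 to -0.01) and -0.05 (-0.12 to 0.02), and at -0.04 (-0.11 to 0.04) between TCF7L1 and TCF7L1-MUT. *BUB1B*, encoding BubR1, an inhibitor of *CDC20*, had 2378, 1690 and 1455 counts, or 95.8, 97.5 and 72.9 CPM. It was level between vector and TCF7L1, at 0.03 (-0.07 to 0.12), and lower with TCF7L1-MUT, at -0.39 (-0.49 to -0.30).

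At the centromere and kinetochore 6 of 7 genes were above the vector in each library, with medians of 0.28 and 0.29. *SPC25* (ENSG00000152253, chr2:168834132-168913371), a subunit of the NDC80 complex that binds microtubules, had 512, 569 and 655 counts, or 20.6, 32.8 and 32.8 CPM. *NDC80* (ENSG00000080986, chr18:2571511-2616635), another subunit, had 849, 898 and 959 counts, or 34.2, 51.8 and 48.1 CPM. Both were near 1.5-fold above the vector, *SPC25* at 0.67 (0.50 to 0.85) and 0.67 (0.50 to 0.84) and *NDC80* at 0.60 (0.46 to 0.74) and 0.49 (0.36 to 0.63). Between TCF7L1 and TCF7L1-MUT they were near even, at 0.00 (-0.17 to 0.16) and 0.11 (-0.03 to 0.24). *NUF2*, also of this complex, had lower ratios of 0.28 and 0.29, and *CENPA*, the histone variant of the centromere, had 0.33 and 0.32.

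The large coiled-coil gene *CENPF* and the kinesin gene *CENPE* differed in opposite directions between TCF7L1 and TCF7L1-MUT. *CENPF* had 6281, 5152 and 4806 counts, or 253, 297 and 241 CPM. *CENPE*, whose product moves chromosomes to the spindle equator, had 1226, 831 and 1181 counts, or 49.4, 47.9 and 59.2 CPM. *CENPF* was highest with TCF7L1 and *CENPE* highest with TCF7L1-MUT, with ratios of TCF7L1 to TCF7L1-MUT of 0.30 (0.25 to 0.36) and -0.31 (-0.44 to -0.18). *SGO1*, the protector of centromeric cohesion, had 340, 244 and 319 counts and ratios to the vector of 0.04 and 0.22.

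The chromosomal passenger complex, which corrects attachments and directs cytokinesis, had medians near 0, at 0.08 and 0.03, and its 4 subunits did not move together. *AURKB*, its kinase, had 2912, 1805 and 2127 counts, or 117, 104 and 107 CPM, and lay under the vector at -0.17 (-0.26 to -0.09) and -0.14 (-0.22 to -0.06), with -0.04 (-0.13 to 0.06) between TCF7L1 and TCF7L1-MUT. *INCENP*, its scaffold, had 3275, 2198 and 1997 counts, or 132, 127 and 100.1 CPM. It was lowest with TCF7L1-MUT, at -0.40 (-0.48 to -0.32), the lowest ratio of any member in that comparison. *BIRC5*, encoding survivin, and *CDCA8*, encoding borealin, were above the vector, at 0.22 and 0.37 with TCF7L1 and 0.20 and 0.33 with TCF7L1-MUT.

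All 8 mitotic kinesins were above the vector with TCF7L1, from 0.17 for *KIF23* to 0.68 for *KIF18A*, and 7 of 8 were with TCF7L1-MUT. *KIF18A* (ENSG00000121621, chr11:28020620-28108308), which dampens chromosome movements at the metaphase plate, had 724, 811 and 877 counts, or 29.2, 46.8 and 43.96 CPM. It was about 1.5-fold higher in both, at 0.68 (0.54 to 0.83) and 0.59 (0.45 to 0.74), and at 0.09 (-0.05 to 0.23) between them. *KIF11*, the motor that separates the spindle poles, had ratios of 0.36 and 0.36, and *KIF2C*, a microtubule depolymerase, 0.27 and 0.43. *KIF14*, a kinesin of cytokinesis, was the member of the family under the vector with TCF7L1-MUT, at -0.04 (-0.15 to 0.07).

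**Figure D3:**
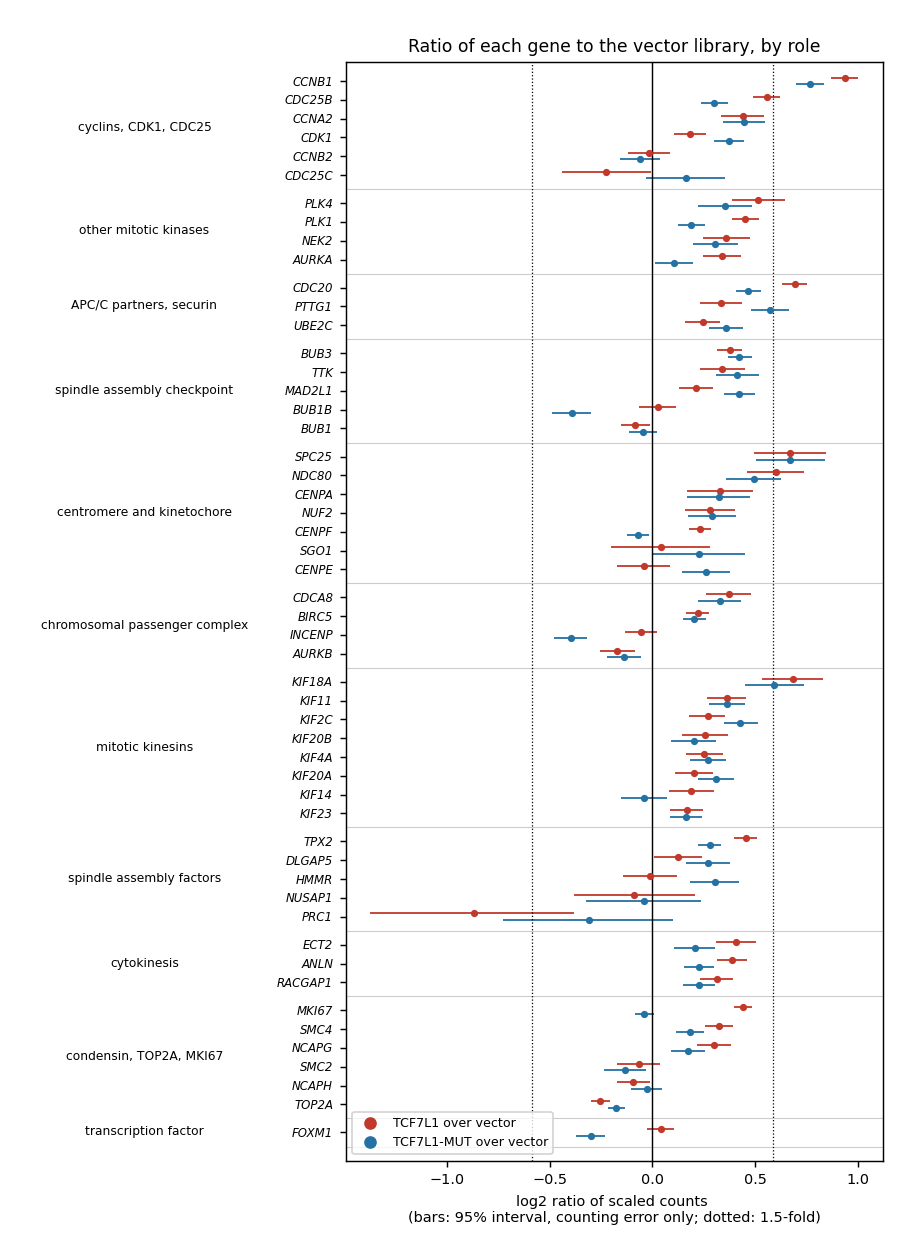
Log2 ratio of TMM-scaled counts to the vector library for TCF7L1 (red) and TCF7L1-MUT (blue), by role, with 95% intervals that cover counting error only and dotted lines at 1.5-fold. Most points lie between 0 and the right dotted line, *CCNB1* lies furthest right in both libraries and *PRC1*, with the widest interval, furthest left with TCF7L1.

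The spindle assembly factors had medians of -0.01 and 0.27, and with TCF7L1 they spanned the widest range of any role through *PRC1*. *TPX2*, which activates Aurora A on the spindle, had ratios of 0.45 and 0.28. *HMMR*, a spindle pole protein, had 1139, 789 and 1128 counts, or 45.9, 45.5 and 56.6 CPM, and was even with TCF7L1 and higher with TCF7L1-MUT, at -0.01 (-0.14 to 0.12) and 0.30 (0.18 to 0.42). *DLGAP5*, a microtubule-stabilizing factor, showed the same order at 0.12 and 0.27.

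*PRC1* (ENSG00000198901, chr15:90966038-90995629), the microtubule bundler of the central spindle, had 128, 49 and 83 counts, or 5.16, 2.83 and 4.16 CPM, far fewer than the other members. Its ratios were -0.87 (-1.37 to -0.38) with TCF7L1, -0.31 (-0.73 to 0.10) with TCF7L1-MUT and -0.56 (-1.10 to -0.03) between them. In GENCODE release 44, 61.9% of the exon bases of *PRC1* are shared with other genes, mainly with ENSG00000284946, a protein-coding gene on the same strand (chr15:90966190-91022566) that had 642, 230 and 286 counts and ratios of -0.96 and -0.85. *NUSAP1*, a microtubule-bundling gene of the nucleolus and spindle, shares 86.8% of its exon bases, mainly with ENSG00000285920, which had 0 counts in all libraries, and had 245, 161 and 191 counts and ratios of -0.09 (-0.38 to 0.21) and -0.04 (-0.32 to 0.24). A counter that sets aside reads matching more than 1 gene would drop the shared bases, and whether these counts are low for that reason was not tested. The other 50 members shared at most 33.7% of their exon bases, the value of *NCAPG*. Without these 2 genes, singled out after their values were seen, the medians were 0.28, 0.27 and 0.03 in the 3 comparisons and 0 members were over 1.5-fold lower.

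**Figure D4:**
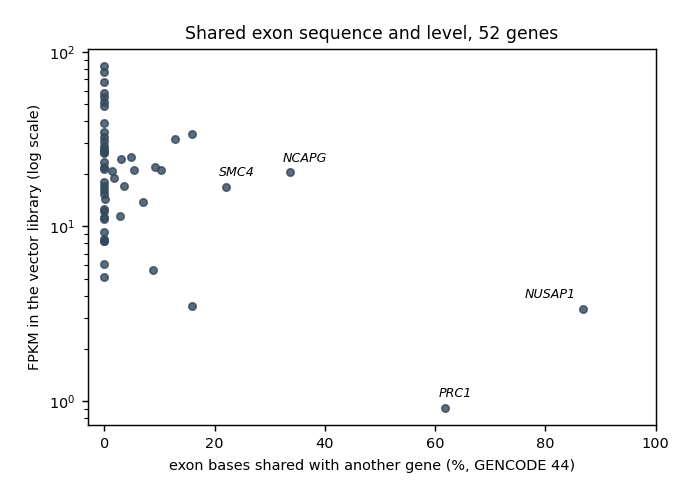
Share of each member's exon bases (%) that also lies in an exon of another gene in GENCODE release 44, against its FPKM in the vector library on a log axis, 52 points. *PRC1* and *NUSAP1* share over 50% and have the 2 lowest levels, 0.917 and 3.37 FPKM.

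The genes of cytokinesis were all above the vector by similar amounts. *ANLN*, a scaffold of the contractile ring, was at 128, 167 and 150 CPM, *ECT2*, the activator of RhoA at the cleavage furrow, at 70.5, 93.4 and 81.3 CPM, and *RACGAP1*, a subunit of centralspindlin, at 112, 139 and 131 CPM. The ratios ran from 0.31 to 0.41 with TCF7L1 and from 0.21 to 0.23 with TCF7L1-MUT, and each gene was higher with TCF7L1 than with TCF7L1-MUT.

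Condensin, topoisomerase and the chromosome periphery were again split, with medians of 0.12 and -0.03. *TOP2A*, encoding topoisomerase II alpha, had 10870, 6367 and 7731 counts, the most of any member in the vector and TCF7L1-MUT libraries, or 438, 367 and 388 CPM. It was lower in both libraries, at -0.25 (-0.30 to -0.21) and -0.18 (-0.22 to -0.13), with a ratio of TCF7L1 to TCF7L1-MUT of -0.08 (-0.13 to -0.03). *NCAPH*, a condensin I subunit, had 3237, 2119 and 2549 counts and was nearly even, at -0.09 (-0.17 to -0.01), -0.03 (-0.10 to 0.05) and, between TCF7L1 and TCF7L1-MUT, -0.06 (-0.15 to 0.02), as was the condensin ATPase gene *SMC2*, at -0.07 and -0.13. The other ATPase gene, *SMC4*, and the condensin I gene *NCAPG* were above the vector, at 0.32 and 0.30 with TCF7L1 and 0.18 and 0.17 with TCF7L1-MUT.

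*MKI67* (ENSG00000148773, chr10:128096659-128126385), encoding the proliferation marker Ki-67 of the chromosome periphery, had 8627, 8167 and 6745 counts, or 347, 471 and 338 CPM. It was higher with TCF7L1 than in both other libraries, at 0.44 (0.40 to 0.48) over the vector and 0.48 (0.43 to 0.53) over TCF7L1-MUT, the highest such ratio of any member, while TCF7L1-MUT was level with the vector at -0.04 (-0.09 to 0.01). *FOXM1*, the transcription factor that drives many G2/M genes with the MuvB complex, had 4212, 3022 and 2748 counts, or 170, 174 and 138 CPM. It was even between vector and TCF7L1, at 0.04 (-0.03 to 0.11), and lower with TCF7L1-MUT, at -0.30 (-0.37 to -0.23).

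The members furthest from even between TCF7L1 and TCF7L1-MUT were thus *MKI67*, *BUB1B* at 0.42 (0.32 to 0.52), *INCENP* at 0.34 (0.25 to 0.43), *FOXM1* at 0.34 (0.26 to 0.41) and *CENPF* upward. Downward they were *PRC1*, *CDC25C*, *HMMR* at -0.31 (-0.45 to -0.18), *CENPE* and *PTTG1* at -0.24 (-0.34 to -0.14). None of these was past 1.5-fold.

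**Figure D5:**
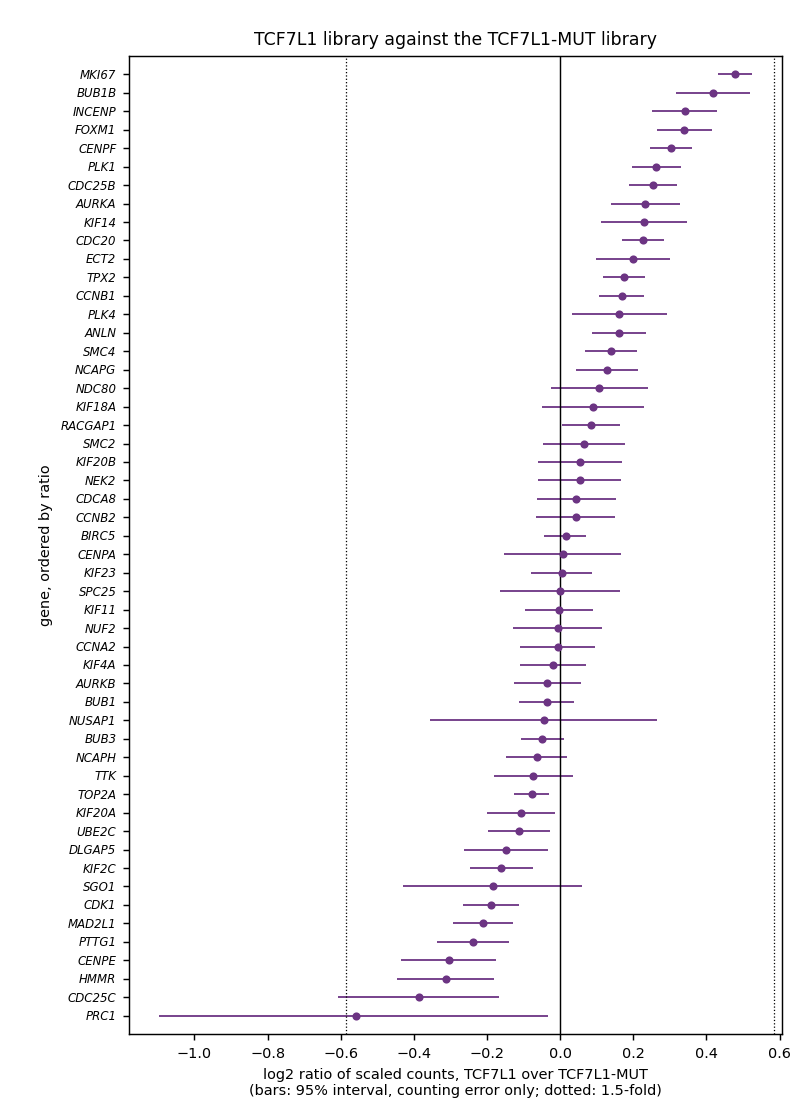
Log2 ratio of TCF7L1 to TCF7L1-MUT for each of the 52 genes, in order, with 95% intervals that cover counting error only and dotted lines at 1.5-fold. No point lies past a dotted line; *MKI67* is highest at 0.48 and *PRC1*, on 49 and 83 counts, lowest at -0.56.

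Lists of further genes of the same pathways were smaller in shift or mixed. As background for their counts, 6.83% and 3.96% of genes at or above 10 CPM were over 1.5-fold higher with TCF7L1 and TCF7L1-MUT. Over 1.5-fold lower were 10.5% and 6.56%. Of 13 genes of MuvB, B-MYB, DREAM and NF-Y, the factors that bind the motifs above, 9 and 8 were above the vector with TCF7L1 and TCF7L1-MUT, with medians of 0.30 and 0.12, and 0 were past 1.5-fold in either direction. *LIN54*, the subunit of MuvB that contacts DNA, had 609, 594 and 726 counts and ratios of 0.48 and 0.57, whereas *RBL2*, encoding the pocket protein p130 of the repressive DREAM complex, had 2106, 1022 and 1269 counts and ratios of -0.53 and -0.42. Of 33 other kinetochore genes, 22 and 26 were above the vector, with medians of 0.15 and 0.16. Over 1.5-fold higher were 2 and 1 of them, and over 1.5-fold lower 1 and 0. *SKA1*, a subunit of the Ska complex at microtubule ends, was the highest of them at 0.66 and 0.63, and *CENPU*, of the inner kinetochore, had 1910, 874 and 1665 counts and ratios of -0.61 and 0.12.

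The 17 genes of the anaphase-promoting complex and its regulators had medians of 0.10 and 0.16, with 0 past 1.5-fold. The 24 other mitotic regulators had medians of 0.21 and 0.16, with 0 and 1 over 1.5-fold higher and 0 lower. The 33 other kinesin, spindle and centrosome genes had medians of 0.10 and -0.02, with 2 and 0 over 1.5-fold higher and 0 lower. The 16 other condensin and cohesin genes had medians of 0.08 and -0.02, with 1 and 0 over 1.5-fold higher and 0 lower. *STAG1*, a cohesin subunit, was the highest of these at 580, 719 and 597 counts and ratios of 0.83 and 0.36, and *SMC1A*, the cohesin ATPase, was at 10957, 5647 and 6004 counts and ratios of -0.44 and -0.55. The lists centred between the background and the 52 members, apart from the MuvB list with TCF7L1 at 0.30 and the spindle and cohesin lists with TCF7L1-MUT at -0.02. Between TCF7L1 and TCF7L1-MUT, the medians were 0.04 for the MuvB list, -0.06 for the other kinetochore genes, -0.04 for the anaphase-promoting complex, 0.00 for the other regulators, 0.10 for the spindle and centrosome genes and 0.13 for condensin and cohesin. These lists too were thus close to even in that comparison.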

How the data were processed

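RNA-seq libraries, 1 per group, were analysed from the deposited tables. Reads had been mapped by the authors to GRCh38 with STAR 2.5 and deposited as raw counts per gene from HTSeq 0.6.1, and the submitters' processing notes also name edgeR 3.16.5. The FPKM values deposited by the authors are these counts over gene length and a library size adjusted by 1 factor per library, as checked on the values. The counting mode, strand setting and annotation release are not given in the sources used here. The remaining column carries the abbreviation of the domain that was mutated, and it was read as the TCF7L1-MUT library. Counts were scaled with TMM (edgeR 4.0.16, R 4.3.3), genes with at least 10 counts over 3 libraries were kept, and log2 ratios used a prior count of 0.125, with 95% Clopper-Pearson intervals on each pair of counts. No p-value was computed, since the study's text gives no dispersion and none can be estimated. Genes were called by size alone, past 1.5-fold or 2-fold. Calculations were tested on simulated data. Motifs were searched by letters on both strands in RefSeq promoter windows (GRCh38.p14), and exon overlap was taken from GENCODE release 44 (Python 3.11.15, numpy 2.4.6, pandas 2.3.3, scipy 1.17.1, matplotlib 3.10.9). Members and lists were chosen with earlier results of these data known. All members could be named, and in full the 5 highest and 5 lowest in each comparison with 10 preset genes. From the pathway and comparison lists, genes with at least 100 counts in 1 library among the 2 highest and 2 lowest were named. Cell type markers were not named by this rule. Alternatives were library size only, DESeq2 1.42.0 size factors, other filters, a prior count of 2, thinning to the smallest library, log2(FPKM + 1) and a shorter promoter window.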

Additional observations from a re-analysis of the deposited data

Results flagged for a closer look

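*CENPF*, a kinetochore gene, had ratios to the vector on opposite sides of 0 with both counting intervals off 0. Its log2 ratio was 0.23 with TCF7L1 and -0.07 with TCF7L1-MUT. With 1 library per group the difference was not tested.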

How the results depend on the processing

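Over the scaling, filter, prior count, thinning and FPKM alternatives, the median ratio of the members ran from 0.21 to 0.31 for TCF7L1 over vector, 0.18 to 0.27 for TCF7L1-MUT over vector and 0.01 to 0.03 for TCF7L1 over TCF7L1-MUT. The value of 0.18 came with library size only. The sign was kept in all of these by 46, 51 and 46 of the 52 members. *NDC80* and *PRC1* with TCF7L1 and *KIF18A* with TCF7L1-MUT were not past 1.5-fold in some of them. With log2(FPKM + 1), and without the 2 members that share over 50% of exon bases (an alternative added after seeing the data), 0 members were over 1.5-fold lower with TCF7L1 instead of 1. In the 150 bases before the start alone, TTTGAA occurred in 47.7%, TTTAAA in 20.5% and TTTGGCGC in 0.0% of members, against 9.06%, 7.67% and 0.45% of all genes in the same window. Depth limits *PRC1* (128, 49 and 83 counts). No paired analysis was possible because each group has 1 library.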
